A study of Mus musculus with 10 samples.

Results

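The G1 cyclins, the cyclin-dependent kinases (CDKs) they activate, and the inhibitors of these kinases were examined in mouse hepatocytes after deletion of Nrf2, p65, or both. The 10 genes were the D cyclins Ccnd1, Ccnd2, and Ccnd3, the E cyclins Ccne1 and Ccne2, the kinases Cdk4 and Cdk6, and the inhibitors Cdkn1a, Cdkn1b, and Cdkn2c. They were chosen by name, and each was found once among the 21939 genes of the deposited table by its Ensembl identifier. Male mice aged 8 to 9 weeks on a C57BL/6J background received AAV8Cre in 1 intraperitoneal injection, and their hepatocytes were isolated 12 days later by perfusion with Liberase and centrifugation in Percoll. AAV8Cre is an adeno-associated virus of serotype 8 that carries Cre recombinase behind the thyroxine-binding globulin promoter, which is active in hepatocytes. Control mice were wild-type animals, the Nrf2 KO group carried Nrf2 flox/flox alleles, the p65 KO group p65 flox/flox alleles, and the DKO group floxed alleles of both genes. All 4 groups, controls included, had received the virus and Cre. Poly-A RNA was sequenced from 3 control, 2 Nrf2 KO, 2 p65 KO, and 3 DKO mice, with 1 library per mouse, and the total estimated count per library was between 33707165 and 49897382 (median 37043490.5).

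Progression through G1 begins when mitogens induce D cyclins, which bind CDK4 or CDK6 and start the phosphorylation of the retinoblastoma protein. E cyclins then activate CDK2, E2F factors are released, and the genes of DNA replication are transcribed. The INK4 protein p18, encoded by Cdkn2c, binds CDK4 and CDK6, whereas p21 and p27, encoded by Cdkn1a and Cdkn1b, hold back CDK2 complexes, and hepatocytes of the adult liver are mostly quiescent but can re-enter this cycle after injury.

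The targeted genes and the cell type come before the results. Nfe2l2, which encodes Nrf2, had 2318, 1991, and 1990.2 normalized counts in the control libraries, 4739 and 5005 in those labelled Nrf2 KO, 1993 and 1997 in those labelled p65 KO, and 4111, 3434, and 5239.5 in those labelled DKO. Its total was therefore higher in the groups in which it was targeted, with log2 fold changes of 1.21 (adjusted p = 0.00488) in Nrf2 KO and 1.02 (adjusted p = 0.00347) in DKO. For Rela, which encodes p65, there was a log2 fold change of -0.07 in p65 KO (adjusted p = 0.765). Since the table gives only a total per gene, reads of the deleted exons could not be told from the others, and the genotype names used here are those of the labels. In hepatocytes isolated 12 days after the virus, the study itself reported an efficient loss of both genes by RT-qPCR and Western blot. A normalized count is the estimated count divided by the library's TMM-scaled size relative to the mean of the 10 libraries. Adjusted p-values are from edgeR's quasi-likelihood test with Benjamini-Hochberg adjustment over 13641 genes, and a gene was called changed at an adjusted p of at most 0.05. Fold changes are given on the log2 scale with their standard error (SE).

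The hepatocyte label was borne out by its markers, since all 12 hepatocyte genes were tested and their summed level was between 4367080 and 6687740 normalized counts in every library, with Alb the most abundant. Of these 12, 2 rose in p65 KO, against 8.13% of all genes higher, and 3 in DKO, against 5.45% past the test. In both comparisons 0 fell. Markers of other liver cells were also present, and they were not even across genotypes. The 12 Kupffer cell and macrophage markers summed to 428, 1068, and 818 normalized counts in control, 916 and 308 in Nrf2 KO, 6491 and 4814 in p65 KO, and 3195, 2246, and 1833 in DKO libraries, with Cd5l the most abundant. All 12 rose in p65 KO, where 8.13% of all tested genes were higher, and 6 of 12 rose in DKO, where 5.45% passed in either direction. All 12 markers had an unadjusted p under 0.05 in DKO, as did 22.5% of all genes. The 10 sinusoidal endothelial markers, led by Ptprb, summed to 767, 1386, and 1657 in control, 1920 and 957 in Nrf2 KO, 5206 and 3664 in p65 KO, and 2244, 2961, and 1849 in DKO libraries. All 10 rose in p65 KO. In DKO 1 of 10 rose and 0 fell, near the share of all genes past the test in either direction, while 7 had an unadjusted p under 0.05 and the median log2 fold change was 0.86. The 9 stellate cell markers, led by Dcn, summed to 197, 211, and 410.0 in control, 317 and 186 in Nrf2 KO, 2059 and 2010.3 in p65 KO, and 368, 973, and 374 in DKO libraries. In p65 KO 7 of 9 rose. In DKO 1 of 9 rose and 0 fell, again near the share of all genes past the test in either direction, with 6 at an unadjusted p under 0.05 and a median of 1.47. The p65 KO libraries were thus the highest of the 10 for each of these 3 lists. None of these 31 markers was at 0 in all libraries. In such bulk samples, more cells of a type and more RNA per cell cannot be told apart, and the part of non-hepatocyte RNA in the results that follow was not tested.

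**Figure D1:**
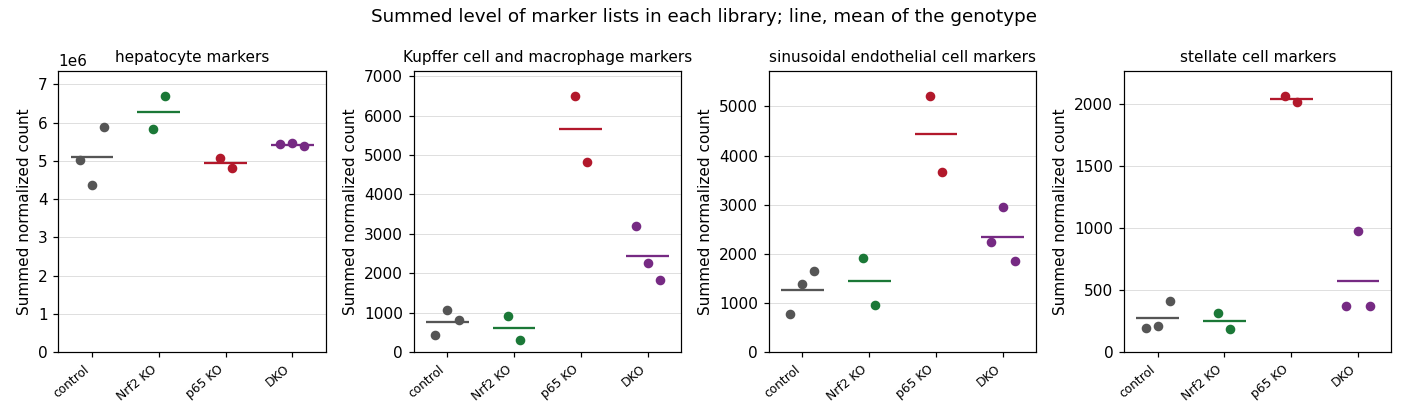
Summed normalized counts of the hepatocyte, Kupffer cell and macrophage, sinusoidal endothelial cell, and stellate cell marker lists in each of the 10 libraries (points), by genotype, with the genotype mean as a line; each vertical axis starts at 0. Both p65 KO libraries are the highest for the 3 non-hepatocyte lists, whereas the hepatocyte sums lie between 4367080 and 6687740 and those of p65 KO are within the range of control.

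The 10 genes divided into steady and variable ones. Over the 10 libraries, Cdk4 spanned a range of 1.33-fold, Ccnd3 1.41-fold, Cdkn1b 1.52-fold, Cdk6 1.65-fold, and Cdkn2c 1.86-fold between the lowest and the highest normalized count. Ccnd1 spanned 7.93-fold, Ccne2 8.48-fold, Cdkn1a 9.92-fold, Ccnd2 13.1-fold, and Ccne1 19.2-fold. Levels were compared between genes per kb of the canonical transcript. In control hepatocytes, Cdk4 (405 ± 23.3 normalized counts per kb, SD, n = 3) and Ccnd3 (383 ± 49.0) were the most abundant and overlapped, followed by Ccnd1 (229 ± 80.3) and Cdkn1a (175 ± 51.0), which also overlapped. Cdkn1b (128 ± 6.77), Cdk6 (56.4 ± 4.69), Cdkn2c (43.2 ± 7.07), and Ccne1 (11.1 ± 2.83) came next, each clear of its neighbours in every library, and Ccnd2 (4.004 ± 2.16) and Ccne2 (3.48 ± 1.46) were the lowest and overlapped. The D cyclin transcripts of control hepatocytes were thus mainly Ccnd3 and Ccnd1, both far more abundant per kb than the E cyclins. In p65 KO, the order was different: Ccnd1 was first (926 ± 46.3 normalized counts per kb, SD, n = 2), clear of Ccnd3 (401 ± 32.4), and Ccne1 (121 ± 36.5) stood above Cdk6 (75.9 ± 10.2) and Cdkn1a (50.8 ± 16.3).

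Of the 10 genes, 5 rose and 1 fell in p65 KO relative to control. Across all tested genes, 14.9% passed in this comparison, with 8.13% higher and 6.77% lower, and the median log2 fold change was 0.38 over the 10 genes and 0.00 over all genes. With an added limit of 1 on the size of the log2 fold change, 5 of the 10 passed against 6.59% of all genes. By DESeq2 6 of the 10 were called, with 2695 genes in all, and by limma 5, with 2292 in all. Single libraries weighed on the count: it was 2 without control replicate 1, 2 without control replicate 2, 2 without control replicate 3, 1 without p65 KO replicate 1, and 3 without p65 KO replicate 2. In Nrf2 KO, 0 of the 10 passed by edgeR, by DESeq2, or by limma, against 0.726% of all genes, and 0 had an unadjusted p under 0.05, against 9.38% of all genes. In DKO relative to control, 0 of the 10 passed by edgeR, whereas 4 had an unadjusted p under 0.05, as did 22.5% of all genes, DESeq2 called 2, and limma called 0. By edgeR 5.45% of all genes passed, and DESeq2 called more, 1446 genes in all against 743 by edgeR. Without Nrf2 KO replicate 1 or without Nrf2 KO replicate 2, the count in DKO was 2. The median log2 fold change of the 10 was -0.05 in Nrf2 KO and 0.19 in DKO, beside 0.00 and 0.02 over all genes. These 3 comparisons share the control libraries.

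**Figure D2:**
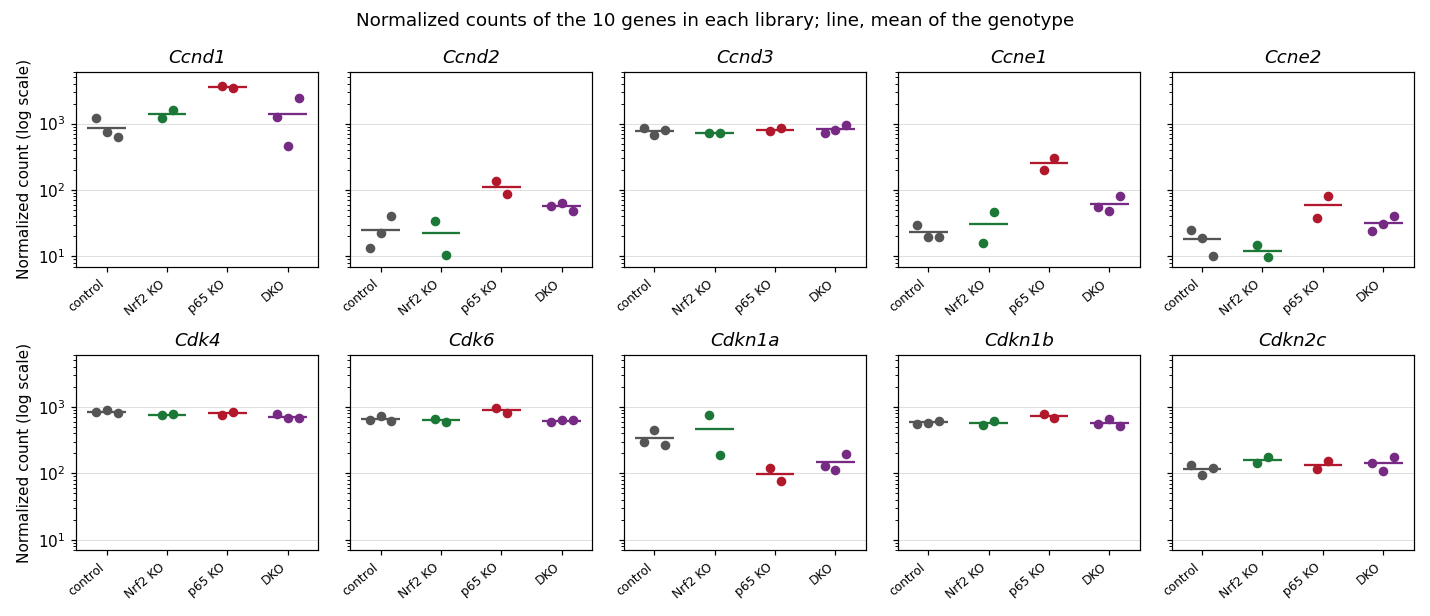
Normalized counts of the 10 genes in each library (points) by genotype, on a log axis common to all panels, with the genotype mean as a line. The genotype means of Ccnd1, Ccnd2, Ccne1, and Ccne2 are highest and that of Cdkn1a is lowest in p65 KO, whereas Cdk4, Ccnd3, Cdkn1b, Cdk6, and Cdkn2c span at most 1.86-fold over the 10 libraries.

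Among the D cyclins, Ccnd1 encodes cyclin D1, the mitogen-induced cyclin that rises when hepatocytes leave quiescence. It had 1213, 759, and 633 normalized counts in control, 1227 and 1575 in Nrf2 KO, 3639 and 3390.3 in p65 KO, and 1253, 459, and 2402 in DKO libraries. Both p65 KO libraries lay above all others, both Nrf2 KO libraries lay above the highest control, 1 of them narrowly, and the DKO libraries were widely spread, with 1 below the lowest control and 1 above both Nrf2 KO libraries. Ccnd1 rose in p65 KO with a log2 fold change of 2.02 (SE 0.492, adjusted p = 0.0224), whereas the values of 0.69 in Nrf2 KO (adjusted p = 0.7505) and 0.66 in DKO (adjusted p = 0.408) did not pass. The DKO value rests largely on replicate 3 (2402), since replicate 1 was narrowly above the highest control and replicate 2 below the lowest. The p65 KO call was lost without control replicate 2 (adjusted p = 0.0663), control replicate 3 (0.0660), p65 KO replicate 1 (0.112), or p65 KO replicate 2 (0.0630), although the log2 fold change stayed at 1.83 or above in all 19 alternative fits. Leaving a single p65 KO mouse in the fit assumes that it varies like the other groups.

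Ccnd2, which encodes cyclin D2, was scarce. It had 13.3, 22.6, and 40.2 normalized counts in control, 34.6 and 10.5 in Nrf2 KO, 137 and 86.0 in p65 KO, and 57.9, 64.0, and 48.1 in DKO libraries. The p65 KO libraries were the highest and the DKO libraries lay between them and control without overlap with either. The rise in p65 KO had a log2 fold change of 2.12 (SE 0.518, adjusted p = 0.0225), and the DKO value was 1.15 (SE 0.484, adjusted p = 0.192). Without control replicate 1 (adjusted p = 0.0714), control replicate 2 (0.0624), or p65 KO replicate 1 (0.171), the p65 KO call was lost. The sums of the endothelial, macrophage, and stellate cell markers given above were likewise highest in p65 KO, and their part in the level of Ccnd2 was not tested. Ccnd3, which encodes cyclin D3, stayed between 668 and 939 normalized counts over all 10 libraries, and its largest log2 fold change against control was -0.11, in Nrf2 KO, with a 95% interval from -0.43 to 0.21. In p65 KO, its interval of -0.26 to 0.38 was narrow beside the changes of Ccnd1 and Ccnd2. A pseudogene, Ccnd3-ps, shares 14.8% of the 31-base stretches of the Ccnd3 transcript, which makes the count of Ccnd3 less certain than those of the other D cyclins.

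The E cyclins activate CDK2 at the end of G1. Ccne1 had 29.8, 19.7, and 19.6 normalized counts in control, 15.8 and 46.1 in Nrf2 KO, 197 and 304 in p65 KO, and 55.8, 48.2, and 80.1 in DKO libraries. The 2 p65 KO libraries stood far above the rest, the 3 DKO libraries all lay above the control and Nrf2 KO libraries, and the Nrf2 KO libraries lay on both sides of control. With a log2 fold change of 3.44 (SE 0.428, adjusted p = 0.00157), Ccne1 changed more in p65 KO than any other of the 10 genes. Among the 10185 genes that averaged 50 or more normalized counts it was in place 34 by the size of this change, and among the 13641 tested genes it was in place 59 by p-value. This call held in each of 19 alternative fits, with log2 fold changes between 2.21 and 3.72 and adjusted p-values of at most 0.0138. In DKO relative to control, the log2 fold change of 1.41 (SE 0.404, adjusted p = 0.0688) did not pass, although it did by DESeq2 (adjusted p = 0.0129), without the filter on low counts (0.0483), and without Nrf2 KO replicate 1 (0.0397) or Nrf2 KO replicate 2 (0.0397).

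Ccne2, the second E cyclin, had 25.4, 18.7, and 10.3 normalized counts in control, 14.8 and 9.70 in Nrf2 KO, 37.6 and 82.2 in p65 KO, and 24.2, 30.3, and 40.05 in DKO libraries. It was highest in p65 KO replicate 2, while p65 KO replicate 1 lay within the range of the DKO libraries and above control. The rise in p65 KO had a log2 fold change of 1.73 (SE 0.504, adjusted p = 0.043), close to the threshold. It was lost without p65 KO replicate 2 (log2 fold change 1.05, adjusted p = 0.313) or p65 KO replicate 1 (0.0678), without control replicate 1 (0.0627), 2 (0.0905), or 3 (0.108), and without Nrf2 KO replicate 1 (0.0564), Nrf2 KO replicate 2 (0.0558), or DKO replicate 2 (0.0517). Fitting only the control and p65 KO libraries also ended the call (0.0585). Raw counts of Ccne2 were between 11 and 87.

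Cdk4 and Cdk6 encode the catalytic partners of the D cyclins. Cdk4 remained between 669 and 891 normalized counts in all libraries, and in none of the 6 comparisons did it pass the test. Its 2 lowest values were in DKO, where the log2 fold change against control was -0.26 (95% interval -0.48 to -0.03, adjusted p = 0.166), and in p65 KO it was -0.09 (95% interval -0.34 to 0.16). Cdk6 had 637, 719.8, and 616 normalized counts in control, 653 and 598 in Nrf2 KO, 969 and 801 in p65 KO, and 586, 629, and 642 in DKO libraries. Only the p65 KO libraries left the common range, both upward. Cdk6 rose in p65 KO with a log2 fold change of 0.43 (SE 0.125, adjusted p = 0.0434), which is below the limit of 1 on its size. The call was lost without control replicate 1 (adjusted p = 0.118), control replicate 3 (0.117), Nrf2 KO replicate 1 (0.0616), Nrf2 KO replicate 2 (0.0619), p65 KO replicate 1 (0.31, with a log2 fold change of 0.28), or DKO replicate 3 (0.0513), and with only the control and p65 KO libraries fitted (0.0693). Of the 31-base stretches of the Cdk4 and Cdk6 transcripts, 3.36% and 3.53% also occur in other genes.

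Of the inhibitors, Cdkn1a, which encodes p21, was the one that changed. It had 297, 447, and 263 normalized counts in control, 750.4 and 187 in Nrf2 KO, 119.9 and 75.6 in p65 KO, and 129, 113, and 195 in DKO libraries. All 5 libraries that lacked p65 by their labels lay below all 3 control libraries, and the 2 Nrf2 KO libraries were on opposite sides of control, 1 of them the highest of the 10. Cdkn1a fell in p65 KO, with a log2 fold change of -1.78 (SE 0.522, adjusted p = 0.0435), and had -1.21 in DKO (SE 0.441, adjusted p = 0.139). The DKO value passed by DESeq2 (adjusted p = 0.045), with only the control and DKO libraries fitted (0.0450), and without Nrf2 KO replicate 1 (0.0428) or Nrf2 KO replicate 2 (0.0391). The p65 KO call was lost without control replicate 1 (0.0823), 2 (0.107), or 3 (0.0573), without DKO replicate 1 (0.0545), and by limma (0.0616). It was also lost without p65 KO replicate 1 or 2, which leaves a single p65 KO mouse, at log2 fold changes of -2.15 and -1.49. With library totals as the only scaling the call was lost too (0.0698). Relative to the shift of all genes under that scaling, the log2 fold change was -1.79. Cdkn1b, which encodes p27, had 552, 578, and 614 normalized counts in control and 775 and 681 in p65 KO libraries, with no overlap between them. Its log2 fold change of 0.32 (95% interval 0.01 to 0.63, adjusted p = 0.14) did not pass, although with library totals as the only scaling it was 0.50 (adjusted p = 0.0495), or 0.32 relative to the shift of all genes. Cdkn2c, which encodes p18, was between 95.4 and 177 normalized counts over the 10 libraries and passed in no comparison, and its largest difference from control was a log2 fold change of 0.47 in Nrf2 KO (95% interval -0.09 to 1.03).

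**Figure D3:**
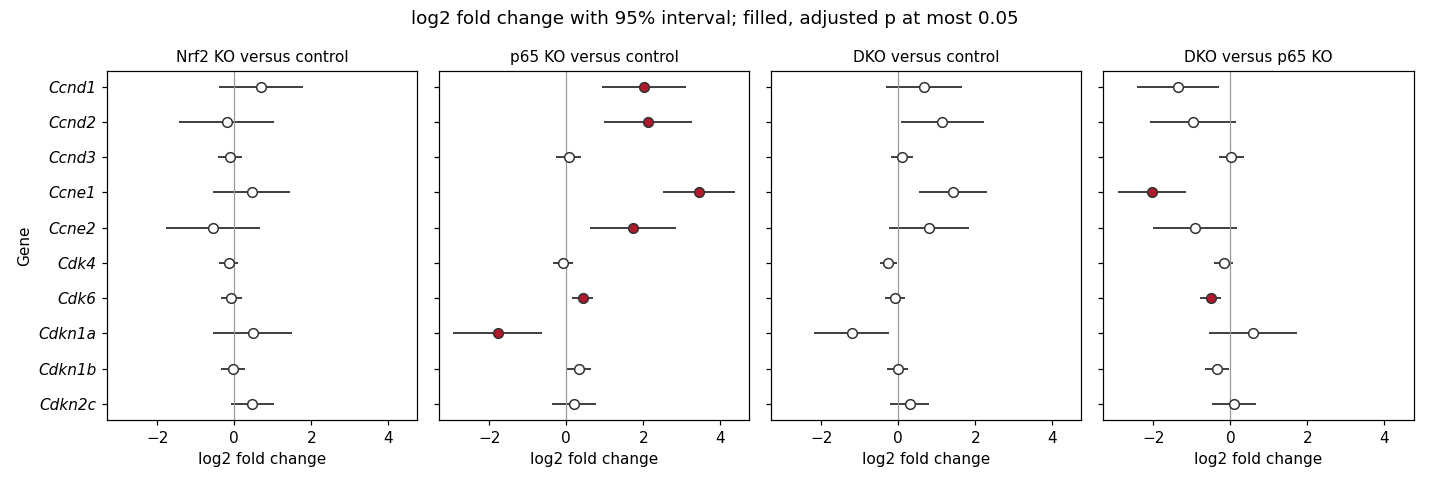
Log2 fold changes of the 10 genes (points) with 95% intervals (lines) from edgeR in 4 comparisons, on 1 horizontal scale. Filled points passed at an adjusted p of at most 0.05; in p65 KO versus control these are Ccnd1, Ccnd2, Ccne1, Ccne2, and Cdk6 above 0 and Cdkn1a below 0, and in DKO versus p65 KO they are Ccne1 and Cdk6 below 0.

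DKO was compared with each single knockout to see what loss of the other factor adds. Relative to p65 KO, 2 of the 10 genes fell in DKO and 0 rose, beside 4.11% of all genes past the test and 2.06% lower. At an unadjusted p under 0.05 there were 4 of the 10 and 22.5% of all genes. The count was 1 without control replicate 1, control replicate 2, control replicate 3, Nrf2 KO replicate 1, Nrf2 KO replicate 2, or DKO replicate 2, and 0 without p65 KO replicate 1, p65 KO replicate 2, or DKO replicate 1. The median log2 fold change was -0.43 over the 10 genes and 0.00 over all genes. Ccne1 was lower in all 3 DKO libraries than in both p65 KO libraries, by a log2 fold change of -2.03 (SE 0.402, adjusted p = 0.0235). That call was lost without p65 KO replicate 1 (adjusted p = 0.0741), p65 KO replicate 2 (0.148), or DKO replicate 1 (0.0797). Cdk6 was also lower in each DKO library, by -0.52 on the log2 scale (SE 0.125, adjusted p = 0.0466), and this call was lost when any 1 of the 10 libraries was left out, with adjusted p-values between 0.056 and 0.267. Ccnd1 did not pass, at -1.36 (SE 0.487, adjusted p = 0.14), but the value was -2.03 (adjusted p = 0.0336) without DKO replicate 3, whose 2402 normalized counts were the highest of its group. DKO replicate 2 was the lowest, at 459, so the size of this change depends on which DKO libraries are kept. Ccnd2 and Ccne2 had log2 fold changes of -0.98 and -0.93 and did not pass.

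Relative to Nrf2 KO, 0 of the 10 genes passed in DKO by edgeR and 0 by limma, and DESeq2 called 1, beside 0.513% of all genes past the test by edgeR. At an unadjusted p under 0.05 by edgeR there were 3 of the 10 and 14.4% of all genes. The gene called by DESeq2, which called 504 genes in all, was Cdkn1a, whose log2 fold change was -1.68 by edgeR (SE 0.477, adjusted p = 0.159). Leaving out Nrf2 KO replicate 2, which had 187 normalized counts against 750.4 in the other, brought it to -2.36, with a single Nrf2 KO mouse left. Nrf2 KO replicate 2 itself lay within the range of the DKO libraries (113 to 195). The size of this change therefore rests largely on Nrf2 KO replicate 1. The interaction asks whether loss of Nrf2 had the same effect in mice with and without p65, and is the fold change of DKO over p65 KO less the fold change of Nrf2 KO over control. It passed for 0 of the 10 genes by edgeR and 0 by limma, against 0.469% of all genes, and 3 had an unadjusted p under 0.05, against 13.8% of all genes. Ccne1 had the largest interaction, -2.48 on the log2 scale (SE 0.604, adjusted p = 0.117), and it was the 1 gene of the 10 called by DESeq2 (adjusted p = 0.00793), which called 400 genes in all. For Ccnd1 it was -2.05 (adjusted p = 0.244), for Cdk6 it was -0.44 (adjusted p = 0.316), and the median over the 10 genes was -0.37 against 0.01 over all genes. The Nrf2 KO libraries had 15.8 and 46.1 normalized counts of Ccne1, on both sides of control. The size of its interaction, and its place before Ccnd1, therefore depend on which Nrf2 KO mouse is included.

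Other regulators of the same phase were read from lists. Of 17 tested kinases, inhibitors, and regulators of G1 beyond the 10, 1 rose and 1 fell in p65 KO by edgeR, below the 14.9% of all genes that passed. DESeq2 called 3 (2695 of all genes), limma called 3 (2292 of all genes), and 8 had an unadjusted p under 0.05, against 31.6% of all genes. The median log2 fold change was -0.18. By edgeR 0 passed in Nrf2 KO or DKO, with 1 and 2 at an unadjusted p under 0.05 (9.38% and 22.5% of all genes) and 0 by DESeq2 and by limma. Wee1, a kinase that restrains CDK1 and CDK2, had 115, 73.8, and 150.4 normalized counts in control, 67.2 and 117 in Nrf2 KO, 616 and 1192 in p65 KO, and 130.4, 120.1, and 339.8 in DKO libraries. Both p65 KO libraries lay far above the rest, and it rose in p65 KO by a log2 fold change of 3.00 (adjusted p = 0.00378) and fell in DKO relative to p65 KO by 2.20 on the log2 scale (adjusted p = 0.0288). Ccnh, the cyclin of the CDK-activating kinase, fell in p65 KO by 0.50 on the log2 scale (adjusted p = 0.0397). Cdk2, the partner of the E cyclins, was between 288 and 424 normalized counts in all libraries, and Cdkn2a, the gene of a further INK4 inhibitor, was at most 1.89 and was not tested.

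Among the 16 pocket proteins, E2F and DP factors, 1 rose and 0 fell in p65 KO, and 1 fell and 0 rose in DKO. Of all genes, 14.9% and 5.45% passed in either direction, and the medians over the list were 0.06 and 0.04. These counts are below or near the background. The riser was Lin52, a subunit of the DREAM complex (log2 fold change 0.86, adjusted p = 0.0468), and the gene that fell was E2f8, an E2F repressor (-1.54, adjusted p = 0.0458). For p65 KO and DKO, DESeq2 called 2 and 2 of the 16 (2695 and 1446 of all genes). Limma called 1 and 0 (2292 and 722 of all genes), so the E2f8 call was lost by limma. At an unadjusted p under 0.05 by edgeR there were 2 and 4 (31.6% and 22.5% of all genes). Of 22 E2F target genes of the G1/S transition and S phase, 2 rose in p65 KO, near the 8.13% of all genes that were higher, namely Cdt1, a replication licensing factor (log2 fold change 1.204, adjusted p = 0.0203), and Ccna2, which encodes cyclin A2 (2.10, adjusted p = 0.0251). The median over this list was 0.47 in p65 KO and 0.95 in DKO. With genes at 3 counts or fewer in 1 group set to that floor, it was 0.82 in DKO. In p65 KO it was 0.45 over 21 genes, after 1 gene at the floor in both groups was dropped. In DKO, 0 of the 22 passed by edgeR, 9 had an unadjusted p under 0.05 (22.5% of all genes), DESeq2 called 6 (1446 of all genes), and limma called 1 (722 of all genes). Of 9 mitosis genes named by the study, which chose them on these samples, so that their direction is no independent evidence, 5 rose in p65 KO, against 8.13% of all genes higher, and 2 in DKO, against 5.45% past the test. DESeq2 called 8 and 5 of these 9 (2695 and 1446 of all genes), limma called 5 and 1 (2292 and 722 of all genes), and 8 and 8 had an unadjusted p under 0.05 by edgeR (31.6% and 22.5% of all genes). Mki67, a marker of cycling cells, had 15.5, 11.8, and 14.9 normalized counts in control, 2.97 and 2.42 in Nrf2 KO, 65.02 and 92.6 in p65 KO, and 44.2, 40.4, and 85.8 in DKO libraries. The libraries labelled p65 KO and DKO thus lay above control for Mki67, as they did for Ccne1, and DKO replicate 3 was the highest of its group for both genes. In Nrf2 KO, 0 of the 16, 0 of the 22, and 0 of the 9 genes passed by edgeR, with 1, 1, and 5 at an unadjusted p under 0.05 (9.38% of all genes), while DESeq2 called 1, 0, and 1 (320 of all genes) and limma called 0 in each list.

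Cdkn1a is a classical target of p53, so other p53 targets were set beside it. Of 17, 0 passed in p65 KO by edgeR, against 14.9% of all genes, 7 had an unadjusted p under 0.05, against 31.6%, and DESeq2 called 2 (2695 of all genes) and limma 1 (2292 of all genes), with a median log2 fold change of 0.19. In DKO, 1 of 17 fell and 0 rose, near the 5.45% of all genes that passed in either direction. The gene that fell was Gadd45a, a stress-induced growth arrest gene (log2 fold change -1.18, adjusted p = 0.0481). In the same comparison, 7 of the 17 had an unadjusted p under 0.05 by edgeR (22.5% of all genes). DESeq2 called 2 (1446 of all genes) and limma called 1 (722 of all genes). Among 11 mitogen-induced transcription factors, 1 fell in p65 KO, near the 6.77% of all genes that were lower, and it was Fosb, an AP-1 subunit (log2 fold change -3.85, adjusted p = 0.0237), and the median was -0.50. In DKO, 0 of these 11 passed by edgeR, 3 had an unadjusted p under 0.05 (22.5% of all genes), DESeq2 called 2 (1446 of all genes), and limma called 0. In Nrf2 KO, 0 passed in each of the p53 and mitogen lists by edgeR, DESeq2, and limma, with 3 and 2 genes at an unadjusted p under 0.05 by edgeR (9.38% of all genes).

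Clock genes moved strongly with the same genotypes. Of 19 clock genes, 12 rose and 4 fell in p65 KO, against 14.9% of all genes past the test, and 6 rose and 3 fell in DKO, against 5.45%. From these same samples, the study had already named Per2 and Arntl, another name of Bmal1, as affected in p65 KO. The counts of this list are therefore no independent evidence. In Nrf2 KO, 0 passed by edgeR, DESeq2, or limma, with 4 at an unadjusted p under 0.05 by edgeR (9.38% of all genes). In DKO, DESeq2 called 14 (1446 of all genes) and limma 6 (722 of all genes), and in p65 KO they called 16 and 15. Over the list, log2 fold changes had a median of 1.197 in p65 KO and 0.71 in DKO. Bmal1, which drives the positive arm of the clock, had 758, 1129.9, and 498 normalized counts in control, 699.96 and 323 in Nrf2 KO, 30.5 and 21.7 in p65 KO, and 270.3, 132, and 130.4 in DKO libraries. Per2, which encodes a repressor of that arm, had 168, 155, and 138 in control, 177 and 386 in Nrf2 KO, 1178 and 1256 in p65 KO, and 589, 607, and 897 in DKO libraries. Both genes placed the DKO libraries between control and p65 KO, as Ccnd2 and Ccne1 did, and they moved in opposite directions. Their log2 fold changes in p65 KO were -4.93 (adjusted p = 0.000914) for Bmal1 and 2.99 (adjusted p = 0.000636) for Per2, and Clock (-1.48, adjusted p = 0.00144) and Per3 (4.19, adjusted p = 0.00198) were the next by p-value. Wee1 and Cdkn1a are known to be under clock control in mouse liver. According to the study's methods, all mice were killed in the morning. The hour of each mouse is not given, and its part in these levels was not tested. The part of the clock in the levels of the cyclins, kinases, and inhibitors was not tested.

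For each of the 6 genes that passed in p65 KO, the 3 genes with the most similar pattern were sought among 10184 others that averaged 50 or more normalized counts, by Pearson's r of log2(normalized count + 1) over the 10 libraries, as a description. Those for Ccnd2 were Gpr182 (r = 0.985), Calcrl (r = 0.983), and Oit3 (r = 0.973), and Oit3 is 1 of the 10 sinusoidal endothelial markers. For Ccne1 they were Prep (r = 0.967), Bhlhe40 (r = 0.956), and Kat7 (r = 0.949), of which Bhlhe40 is in the clock list. Ccnd1 was closest to Copg1 (r = 0.944), Gulo (r = 0.933), and Derl1 (r = 0.921). The genes nearest to Ccne2 were Rcan1, Nmrk1, and Ddhd2 (r between 0.927 and 0.937), to Cdk6 Atf2, Sec24c, and Ube4a (r between 0.943 and 0.969), and to Cdkn1a Trmt9b, Ndrg1, and Appl1 (r between 0.935 and 0.955). Among the 10 genes themselves, Ccne1 and Ccne2 were the most alike (r = 0.814), and Ccne1 and Cdkn1a ran most clearly in opposite directions (r = -0.846).

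The 10 genes lie on chromosomes 4, 5, 6, 7, 10, and 17 of GRCm39, and none of them shares a chromosome with Nfe2l2 on chromosome 2 or Rela on chromosome 19. Of those that passed in p65 KO, Ccnd1 (ENSMUSG00000070348) is at chr7:144483668-144493662, Ccnd2 (ENSMUSG00000000184) at chr6:127102125-127129156, and Ccne1 (ENSMUSG00000002068) at chr7:37797404-37808264, all on the minus strand. Ccne2 (ENSMUSG00000028212) is at chr4:11190303-11204947, Cdk6 (ENSMUSG00000040274) at chr5:3391485-3581008, and Cdkn1a (ENSMUSG00000023067) at chr17:29309936-29319701, all on the plus strand. Promoter sequences of RefSeq on GRCm38.p6 were matched by symbol for 7 of the 10 genes, with 10 entries, and there was no entry for Ccnd1, Ccnd2, and Ccne2. The 250 bases before each start were searched on both strands for the E2F element (TTTCCCGC, TTTGGCGC, TTTGCCGC, or TTTCGCGC), the core of the antioxidant response element bound by Nrf2 (TGACNNNGC), the E-box (CACGTG), the κB consensus bound by p65, and the p53 half-site, the last of these added after the sequences had been seen. Of all 32851 promoters in the table, 1.86% hold the E2F element, 10.2% the antioxidant response element core, 6.02% the E-box, 7.25% the κB consensus, and 7.13% the p53 half-site. In the 10 entries, 0 hold the E2F element and 0 the κB consensus, 2 hold the antioxidant response element core (Cdk4 and Ccnd3), 2 the E-box (Cdk4 and Cdk6), and 1 the p53 half-site (Cdkn1a). Cdk4 has the E-box at 4 places and the antioxidant response element core at 2, with no overlap between them. The sequences of the genes that passed in p65 KO and had an entry are printed with matches in capitals, for Cdkn1a only the first of its 2 entries. The capitals mark an E-box for Cdk6 and 2 p53 half-sites for the first Cdkn1a entry, while Ccne1 had no match. For Ccne1 the window is chr7:38107491-38107740 on the minus strand, for Cdk6 chr5:3343643-3343892 on the plus strand, and for the first of 2 entries of Cdkn1a chr17:29090729-29090978 on the plus strand. The second entry of Cdkn1a, chr17:29093519-29093768 on the plus strand, had no match and is not printed.
Ccne1: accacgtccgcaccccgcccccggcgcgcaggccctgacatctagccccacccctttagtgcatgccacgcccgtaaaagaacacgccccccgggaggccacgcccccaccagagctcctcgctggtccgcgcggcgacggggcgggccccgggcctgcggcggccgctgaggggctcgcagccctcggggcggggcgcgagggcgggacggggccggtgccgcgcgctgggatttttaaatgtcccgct
Cdk6: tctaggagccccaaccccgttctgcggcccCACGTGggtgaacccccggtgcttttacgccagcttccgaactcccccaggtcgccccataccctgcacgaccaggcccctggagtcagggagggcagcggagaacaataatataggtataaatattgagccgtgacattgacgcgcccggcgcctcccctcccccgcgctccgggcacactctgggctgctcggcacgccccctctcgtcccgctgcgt
Cdkn1a: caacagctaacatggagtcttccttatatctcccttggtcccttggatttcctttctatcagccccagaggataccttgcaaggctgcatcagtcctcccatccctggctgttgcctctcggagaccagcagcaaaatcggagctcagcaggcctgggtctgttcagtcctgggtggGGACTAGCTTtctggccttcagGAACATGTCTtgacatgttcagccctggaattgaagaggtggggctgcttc
The Ccne1 window has a GC content of 76.0%, that of Cdk6 66.0%, and that of the first Cdkn1a entry 54.0%, against a median of 52.4% over all promoters. The second Cdkn1a entry has 64.8%. A match describes letters in the window and does not show that a factor binds there.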

How the data were processed

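RNA-seq libraries of hepatocytes from 10 mice were analysed. The authors quantified reads with Salmon 1.10.3 against GRCm39 (GENCODE M33). The value deposited for each gene is an estimated count rounded to a whole number. The name of the table says normalized, but totals and size factors (0.879 to 1.26) differ between libraries, so the values were taken as not normalized. In R 4.3.3, edgeR 4.0.16 fitted the 4 genotypes in 1 model (TMM, at least 10 counts summed over libraries, 13641 genes) with its quasi-likelihood test and Benjamini-Hochberg adjustment, and the fit was tested on simulated data. Alternatives were DESeq2 1.42.0, limma 3.58.1 on log2(CPM + 1), other scalings and filters, the study's fold limit, a replicate block, fits of the compared genotypes alone, and omission of each library in turn. Named genes were the 10 genes, the targets, up to 4 passing genes per list by adjusted p, the most abundant marker per list, and the 3 nearest genes by correlation. Cdk2, Cdkn2a, Mcm2, Mcm5, and Myc were named after their values had been seen. The genes and lists were chosen with earlier results of these data known. Gene names and lengths came from GENCODE M39, which held 21926 of the 21939 deposited identifiers. Replicates of 1 genotype differed by more than sampling noise (chi-square per degree of freedom 44.8 to 204). Python 3.11.15 with matplotlib 3.10.9 drew the figures.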

Additional observations from a re-analysis of the deposited data

How the results depend on the processing

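No result of the 10 genes changed direction in a fit in which it passed. In p65 KO versus control, 6 of the 10 genes passed, and the count was 3 with the replicate block, 4 with only the genotypes compared, 5 by limma, and between 1 and 5 when 1 library was left out. The block ended the calls of Ccne2 (adjusted p = 0.106), Cdk6 (0.110), and Cdkn1a (0.0644) in p65 KO, and of Ccne1 (0.0570) and Cdk6 (0.120) in DKO versus p65 KO. In DKO versus control it was 0, but 2 by DESeq2, 1 without the filter, 1 with only the genotypes compared, and between 0 and 2 with 1 library left out. In DKO versus Nrf2 KO it was 0, but 1 by DESeq2 and between 0 and 1 with 1 library left out, and for the interaction it was 0, but 1 by DESeq2. In DKO versus p65 KO it was 2, but 1 with upper-quartile scaling, 5 with library totals only, 0 with the replicate block, 1 with only the genotypes compared, 1 with the study's fold limit, and between 0 and 2 with 1 library left out. Leaving out a library leaves fewer samples, the fold limit removes smaller changes, and the cause of the other differences was not tested. Library totals alone shifted the median of all genes by 0.18 on the log2 scale in p65 KO and by -0.27 in DKO versus p65 KO and in the interaction, and the genes they added, Ccnd1, Cdk4, and Cdkn1b, had -1.38, -0.17, and -0.34 in DKO versus p65 KO relative to that shift. With them, the calls in the whole table were 1632 higher and 355 lower in p65 KO, against 1109 and 923, and 135 higher and 1618 lower in DKO versus p65 KO, against 280 and 281. In DKO versus control they were 241 higher and 639 lower, against 356 and 387, in DKO versus Nrf2 KO 40 and 43, against 44 and 26, and for the interaction 27 and 113, against 36 and 28. The counts over all genes, and with them the shares set beside the 10 genes, also moved. In p65 KO the count was 2032, and 1178 with the replicate block and 452 without p65 KO replicate 1. In Nrf2 KO it was 99, 60, and 18 (without Nrf2 KO replicate 2), and in DKO 743, 454, and 229 (without control replicate 1). In DKO versus Nrf2 KO it was 70, 39, and 18 (without Nrf2 KO replicate 2), in DKO versus p65 KO 561, 294, and 85 (without p65 KO replicate 1), and for the interaction 64, 53, and 8 (without Nrf2 KO replicate 2), or 127 without DKO replicate 2. DESeq2 called 320 against 99 genes in Nrf2 KO, 1446 against 743 in DKO, 504 against 70 in DKO versus Nrf2 KO, 1291 against 561 in DKO versus p65 KO, and 400 against 64 for the interaction. Samples share only a replicate number: of 13 pairs of libraries with the same number, 1 had a correlation of deviations above 0.1 (range -0.23 to 0.11 over 10185 genes). The lowest raw counts were those of Ccne2 (11 to 87), Ccnd2 (12 to 135), and Ccne1 (16 to 322), for which counting error is largest relative to the level.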

Other observations

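Other marker lists were low or uneven. The 11 T and NK cell markers, led by Cd4, summed to between 15.9 and 36.4 normalized counts in control, 62.2 and 65.3 in Nrf2 KO, 42.7 and 43.5 in p65 KO, and between 74.4 and 166 in DKO libraries, and the 7 B cell markers, led by Ighm, to between 86.1 and 392 in control, 135 and 160.0 in Nrf2 KO, 71.1 and 84.1 in p65 KO, and between 169 and 465 in DKO. The 7 neutrophil markers, led by Csf3r, summed to between 3.74 and 5.90 in control, 3.95 and 6.47 in Nrf2 KO, 72.1 and 13.2 in p65 KO, and between 8.01 and 39.3 in DKO, with Ly6g at 0 in every library. The 7 cholangiocyte markers, led by Sox9, summed to between 271 and 392 in control, 155 and 200.5 in Nrf2 KO, 352 and 445 in p65 KO, and between 199 and 360 in DKO.

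Mcm2 and Mcm5 were uneven among the DKO libraries. Mcm2, a subunit of the replicative helicase, had 228, 59.5, and 323 normalized counts in the 3 DKO libraries and 82.8, 50.2, and 43.9 in control, and Mcm5, another subunit, had 75.7, 48.2, and 331 in DKO and 66.3, 49.2, and 43.0 in control. In both cases, DKO replicate 3 was the highest of the 10 libraries and DKO replicate 2 was within the control range, and Ccnd1 ordered the DKO libraries in the same way, with replicate 3 the highest and replicate 2 the lowest. These genes were named after their values had been seen. Myc, an early mitogen-induced factor, was uneven within control, Nrf2 KO, and p65 KO, and all 3 DKO libraries lay below the lowest control (log2 fold change -2.93, adjusted p = 0.0573, not past the test), with 439.5, 1178, and 169 normalized counts in control, 77.1 and 407 in Nrf2 KO, 718 and 192 in p65 KO, and 65.2, 102, and 66.4 in DKO libraries.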
